A study of Mus musculus with 8 samples.

Results

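The genes described here are 5 genes of extracellular nucleotide handling and adenosine signalling: Entpd1, Nt5e, Cd38, Adora2a and P2rx7. They were selected by gene symbol, with earlier results of these data known, and are 5 of the 23746 rows in each gene table. Of the 5, 4 passed the filter on low values and were tested, and P2rx7 lay below it. RNA was measured in CD8+ T cells of BALB/c mice that bound the AH1 tetramer, a reagent that picks out T cells by their antigen receptor. The cells were wild type or Cd69-/- and were sorted as stem-like or terminally differentiated (labelled term diff, here term-diff), which gives 4 groups of 2 libraries. The labels do not say which part of Cd69 is deleted, which tumour the mice bore, their age or sex, or how many mice stand behind a library. They do not give the gates of the sort either, so whether one of the 5 proteins was part of a gate is not known from them. Replicate numbers come from the sample titles, and p-values measure only the spread between these libraries, which may be technical.

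Cells release ATP when they are stressed or die, and ATP outside the cell acts on P2 receptors. CD39, the product of Entpd1, removes phosphates from ATP and ADP and leaves AMP. CD73, the product of Nt5e, then converts AMP to adenosine. Adenosine binds the receptor encoded by Adora2a, which raises cAMP and dampens T cell receptor signalling. CD38 consumes NAD, and its products can be turned into AMP by other ectoenzymes and so feed the same chain. P2X7, the product of P2rx7, is a channel opened by high ATP. CD39 and CD38 are widely used as surface markers of exhausted T cells in tumours.

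In mm10 coordinates, all 5 genes are protein-coding genes on the plus strand: Entpd1 at chr19:40659793-40741602, Nt5e at chr9:88327608-88372089, Cd38 at chr5:43868826-43912374, Adora2a at chr10:75316942-75334788 and P2rx7 at chr5:122643910-122691432. An exon overlap with another gene on the same strand was found for P2rx7 alone, with the microRNA gene Mir8115 (119 shared bases, no row of its own in the tables). The promoters of the 3 members whose transcripts differed between the subsets are shown because 2 of them moved in opposite directions in the same libraries. Each is the 250 bases before the RefSeq start nearest to the gene start above (GRCm38.p6, the mm10 build, plus strand), written 5′ to 3′ with motif matches in capitals. They lie at chr19:40659520-40659769 for Entpd1, chr9:88327359-88327608 for Nt5e and chr5:43868559-43868808 for Cd38. Entpd1 has 2 RefSeq starts listed, and the window of the other is not described. In the GENCODE annotation the genes begin before these windows, at 40612366 (Entpd1), 88327197 (Nt5e) and 43868553 (Cd38).
Entpd1: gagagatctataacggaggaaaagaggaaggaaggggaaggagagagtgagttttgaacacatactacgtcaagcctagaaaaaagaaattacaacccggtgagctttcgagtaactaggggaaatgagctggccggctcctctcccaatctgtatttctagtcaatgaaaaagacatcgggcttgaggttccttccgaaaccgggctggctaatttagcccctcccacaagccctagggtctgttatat
Nt5e: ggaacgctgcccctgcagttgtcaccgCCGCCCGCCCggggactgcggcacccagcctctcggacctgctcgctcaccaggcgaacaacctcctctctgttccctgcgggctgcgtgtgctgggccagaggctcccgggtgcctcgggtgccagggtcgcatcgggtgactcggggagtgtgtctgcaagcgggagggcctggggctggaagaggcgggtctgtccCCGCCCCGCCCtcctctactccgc
Cd38: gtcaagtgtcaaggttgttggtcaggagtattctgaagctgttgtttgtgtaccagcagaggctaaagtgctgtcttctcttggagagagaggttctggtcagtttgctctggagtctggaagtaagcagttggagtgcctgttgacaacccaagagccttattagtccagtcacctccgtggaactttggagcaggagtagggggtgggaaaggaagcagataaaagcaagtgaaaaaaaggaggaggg
The GC content was 47.2% for the Entpd1 window, 72% for Nt5e and 48.8% for Cd38, and the median of all 32851 such windows was 52.4%. Both strands were searched for 8 motifs. The Nt5e window held 4 matches, all to the GC box GGGCGG, of which 2 lay at -223 to -218 and -219 to -214 and 2 at -24 to -19 and -19 to -14 (counted from the start). Those of each pair overlap. A GC box was found in 32.7% of all windows. The Entpd1 and Cd38 windows held 0 matches. The other motifs were AP-1 (TGANTCA, in 6.75% of all windows), CRE (TGACGTCA, 1.55%), RUNX (TGTGGT, 14%), NFAT (TGGAAA, 18.6%), TCF/LEF (CTTTGNT, 16%), the hypoxia response core (ACGTG, 16.6%) and the E-box (CACGTG, 6.02%), whose letters contain the hypoxia core. The P2rx7 window, not printed, held 1 AP-1 and 2 GC box matches. Of the 5 genes, 4 were in the RefSeq promoter table.

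The libraries differed little in depth, from 2055402 to 2591061 fragments as implied by the confidence limits in the tables. Small RNA rows made up 55.1% and 62.5% of all FPKM (fragments scaled by transcript length and by the mapped reads of the library) in replicate 2 of wild-type term-diff and of wild-type stem-like, and 77.2% to 84.1% in the other 6. Cd69 was at 10.4 to 23.4 FPKM in the 4 wild-type libraries and at 2.21 to 3.69 in the 4 libraries labelled Cd69-/-. All 8 CD8 T cell markers passed the filter (summed level 908 to 1389 FPKM, Cd8a 126 to 166). Of the neutrophil, B cell and tumour or fibroblast markers none passed the filter, and their summed levels reached 1.43, 1.63 and 1.77 FPKM. Dendritic cell markers passed in 2 of 8 cases and summed to 1.36 to 4.27 FPKM.

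Entpd1 was low in stem-like cells and high in term-diff cells in both genotypes. Its level in wild-type stem-like cells was 1.07 and 0.668 FPKM in the 2 libraries, and in wild-type term-diff cells 20 and 21. In Cd69-/- cells it was 1.31 and 1.95 FPKM in stem-like and 25.7 and 20.7 in term-diff. Every term-diff library lay above every stem-like library, by the ratio of the group means 23.5-fold in wild type (0.87 ± 0.286 and 20.5 ± 0.722, SD, n = 2) and 14.2-fold in Cd69-/- (1.63 ± 0.453 and 23.2 ± 3.53, SD, n = 2). On the log2(FPKM + 1) scale, where folds of low levels are understated, the difference was 3.53 ± 0.17 (SE, adjusted p = 2.34e-05) in wild type and 3.21 ± 0.17 (adjusted p = 6e-05) in Cd69-/- cells. The stem-like values rested on 20 to 63.5 implied fragments per library and the term-diff values on 640 to 870. The size of the difference depended on the pseudocount and the call did not: over all 21 alternatives it ranged from 2.12 to 4.44 in wild type and from 2.09 to 3.77 in Cd69-/-, with adjusted p up to 0.00172 and 0.00318.

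Nt5e ran the other way. It stood at 21.8 and 23.7 FPKM in wild-type stem-like cells and at 2.95 and 3.28 in wild-type term-diff cells. The Cd69-/- values were 20.3 and 20.8 FPKM in stem-like and 4.05 and 4.76 in term-diff. The subsets did not overlap in either genotype. Stem-like means were 7.3-fold (22.7 ± 1.35 against 3.12 ± 0.233, SD, n = 2) and 4.67-fold (20.5 ± 0.395 against 4.4 ± 0.504) those of term-diff cells. The log2(FPKM + 1) difference was -2.53 ± 0.12 (SE, adjusted p = 2.34e-05) in wild type and -2.00 ± 0.12 (adjusted p = 7.48e-05) in Cd69-/- cells. The latter call was lost when each library was rescaled to an equal sum of all rows (-2.25, adjusted p = 0.078).

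Within each library the 2 transcripts of the CD39 and CD73 pair exchanged places. FPKM is per transcript length, so levels of different genes can be set side by side. The ratio of Entpd1 to Nt5e was 0.0492 and 0.0282 in wild-type stem-like cells, 0.0646 and 0.0936 in Cd69-/- stem-like cells, 6.76 and 6.4 in wild-type term-diff cells and 6.36 and 4.35 in Cd69-/- term-diff cells. The sum of both was 21.6 to 29.8 FPKM over the 8 libraries, and a link between the 2 genes was not tested. Entpd1 was at most at 1.95 FPKM in stem-like cells and Nt5e at most at 4.76 in term-diff cells. No group therefore had high levels of both transcripts. In RNA pooled from many cells, fewer cells with a transcript and less of it per cell cannot be told apart, and these data do not show whether single cells carry both.

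**Figure D1:**
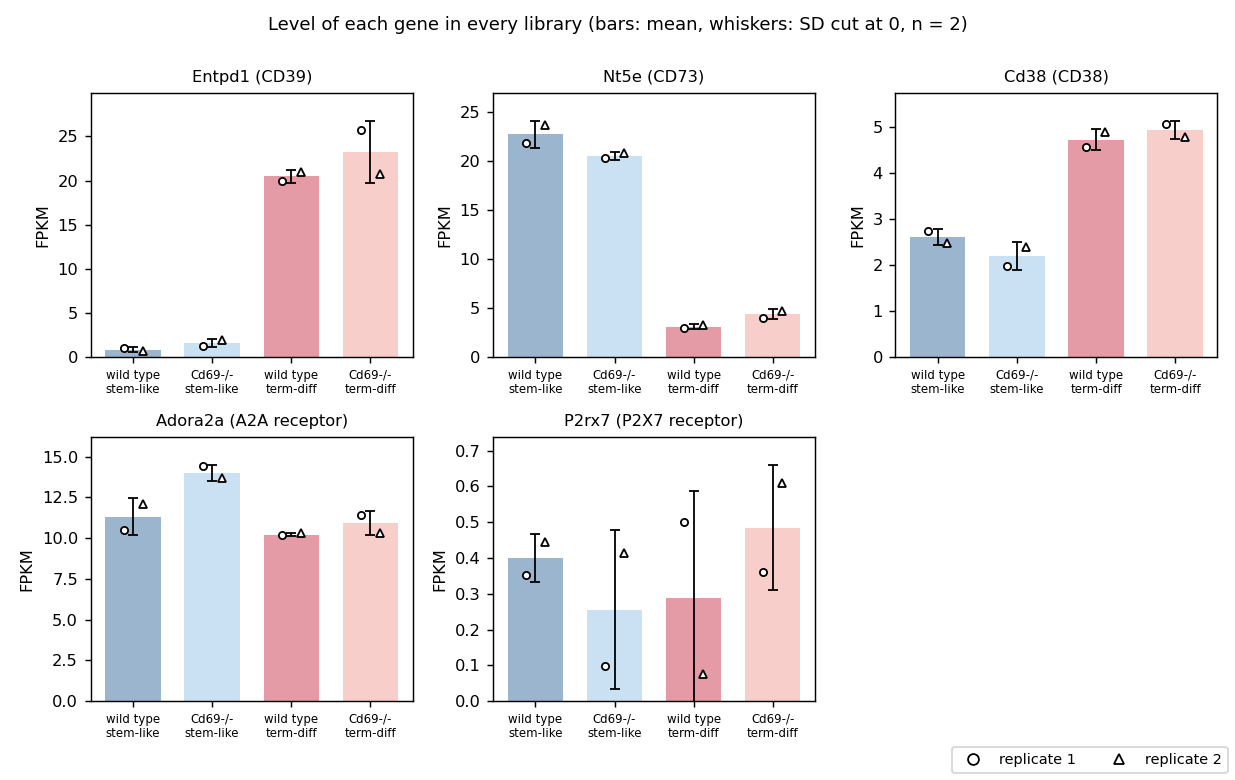
FPKM of the 5 genes by group on linear axes; bars are group means, whiskers the SD of 2 libraries (cut at 0) and symbols the single libraries. Entpd1 lies between 20 and 25.7 FPKM in term-diff and at most at 1.95 in stem-like cells, Nt5e the reverse (20.3 to 23.7 against 2.95 to 4.76), and P2rx7 stays at or under 0.609 in all groups.

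Other cell types also carry CD39, so their markers stand here beside Entpd1, Nt5e and Cd38. CD4 and regulatory T cell markers passed the filter in 5 of 6 cases. Their sum, most of it Ctla4, was 115 to 118 FPKM in wild-type and 118 to 124 in Cd69-/- stem-like cells, and 78.1 to 85.8 and 88 to 118 in term-diff cells. Foxp3, the factor that defines regulatory T cells, was at 0.423 to 1.14 FPKM in stem-like and 0.211 to 0.291 in term-diff cells, below the filter and so not tested. Of the 5 tested genes of this list, Il2ra (-1.27, adjusted p = 0.00361) and Ikzf2 (-0.92, adjusted p = 0.0083) fell and Zbtb7b rose (0.61, adjusted p = 0.0388) in wild-type term-diff cells. In Cd69-/- cells Il2ra (-1.24, adjusted p = 0.00543) and Ikzf2 (-0.87, adjusted p = 0.0127) fell. The Zbtb7b call was lost if any 1 wild-type or Cd69-/- stem-like library was left out (adjusted p = 0.0502 to 0.177), and the second Ikzf2 call if either Cd69-/- stem-like library or Cd69-/- term-diff replicate 2 was (0.0683 to 0.0848). Of 12 myeloid markers 3 passed, and the sum was 14.4 to 18 FPKM in wild-type stem-like, 24.2 to 24.6 in Cd69-/- stem-like, 15.5 to 31.7 in wild-type term-diff and 38.8 to 50.2 in Cd69-/- term-diff cells. Most of it was Ly6c2 (8.82 to 46.8 FPKM), which CD8 T cells express too. Ly6c2 was not called between the subsets (adjusted p = 0.3 in wild type and 0.113 in Cd69-/-). In the mean of genotypes it was at 0.96 (adjusted p = 0.0506). In that mean the others that passed went the other way, Cd68 with a call (-0.60, adjusted p = 0.0423) and Lyz2 without (-0.64, adjusted p = 0.0898). Cd68 was not called in wild type (-0.74, adjusted p = 0.092) or in Cd69-/- cells (-0.47, adjusted p = 0.287). Among dendritic cell markers H2-Ab1 fell in the mean of genotypes (-0.62, adjusted p = 0.0461) but reached 1 FPKM in stem-like libraries alone. It was not called in wild type (-0.46, adjusted p = 0.289) or in Cd69-/- cells (-0.78, adjusted p = 0.107). Zbtb46 was not called in the mean of genotypes (-0.09, adjusted p = 0.814). The macrophage gene Csf1r reached 0.418 FPKM, Emr1 0.19 (0 in 2 libraries) and C1qa 0.794 (0 in 3 libraries).

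Of the 6 endothelial markers Pecam1 alone passed, and the sum was 11 to 13.9 FPKM in stem-like and 4.67 to 6.38 in term-diff cells. Pecam1 fell in term-diff cells of wild type (-0.89, adjusted p = 0.00434) and of Cd69-/- (-1.34, adjusted p = 0.000865). Cdh5 did not exceed 0.203 FPKM and Emcn was at 0 in 7 libraries. NK cell markers passed in 2 of 4 cases. They summed to 24.3 to 27.3 FPKM in wild-type and 19.7 to 23 in Cd69-/- stem-like cells, and to 27.7 to 31.4 and 36.7 to 38 in term-diff cells. Klre1, which CD8 T cells can express, made up most of that sum, and Ncr1 reached 0.375 FPKM. Klre1 rose in term-diff cells of Cd69-/- (adjusted p = 0.00325) and in the mean of genotypes (0.76, adjusted p = 0.00167). Eomes, the other NK marker that passed, fell in Cd69-/- cells (adjusted p = 0.0168) and in the mean of genotypes (-1.02, adjusted p = 0.00495). In wild type neither Klre1 (adjusted p = 0.121) nor Eomes (adjusted p = 0.0887) was called. Erythroid and platelet markers passed in 1 of 6 cases, with sums of 0.574 to 2.05 FPKM. The part of these marker lists in the member differences was not tested.

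Cd38 was higher in term-diff cells in both genotypes, by a smaller margin than Entpd1. Wild-type libraries had 2.74 and 2.49 FPKM in stem-like and 4.57 and 4.89 in term-diff cells. Cd69-/- libraries had 1.99 and 2.41 in stem-like and 5.08 and 4.8 in term-diff cells. No stem-like library reached the lowest term-diff one, and the means were 1.81-fold (2.61 ± 0.172 against 4.73 ± 0.227, SD, n = 2) and 2.25-fold higher (2.2 ± 0.298 against 4.94 ± 0.198). The log2(FPKM + 1) difference was 0.67 ± 0.13 (SE, adjusted p = 0.0122) in wild type and 0.89 ± 0.13 (adjusted p = 0.00437) in Cd69-/- cells. The wild-type call was lost when replicate 2 of wild-type stem-like (0.62, adjusted p = 0.0623), replicate 2 of wild-type term-diff (0.63, adjusted p = 0.0744) or both (0.58, adjusted p = 0.18) were left out. It was also lost, as was that in Cd69-/- cells, after rescaling to an equal sum of all rows (adjusted p = 1 and 0.997). Cd38 rested on 47.5 to 124 implied fragments per library.

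Other genes of NAD metabolism were read from 2 lists. Of 8 listed NAD ectoenzymes 2 passed the filter, Cd38 and the ADP-ribosyltransferase Art2b. Art2b ranged from 0.261 to 1.3 FPKM and was not called (0.47, adjusted p = 0.279 in wild type and 0.46, adjusted p = 0.321 in Cd69-/-). Bst1, which encodes the CD38 relative CD157, stayed below the filter with at most 1.05 FPKM. Of 10 tested NAD synthesis and use genes 0 were called in either genotype, with medians of -0.17 and -0.05 (all genes 0.06 and -0.03). With 13.1% and 9.45% of all genes called, a count of 0 among 10 is near the background. In the mean of genotypes Qprt, an enzyme of NAD synthesis from tryptophan, fell by 0.51 (adjusted p = 0.0155). The call was lost if Cd69-/- stem-like replicate 2 (-0.49) or Cd69-/- term-diff replicate 1 (-0.50) was left out. Qprt reached 1 FPKM in stem-like libraries alone, so it passed the filter through the subset where it was higher.

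Adora2a was expressed at a similar level in all groups. The wild-type values were 10.5 and 12.1 FPKM in stem-like and 10.2 and 10.3 in term-diff cells. Cd69-/- stem-like libraries had the highest values, 14.4 and 13.7, and Cd69-/- term-diff libraries had 11.4 and 10.3. The log2(FPKM + 1) difference between term-diff and stem-like cells was -0.12 (95% interval -0.39 to 0.14, adjusted p = 0.541) in wild type. It was -0.34 (-0.61 to -0.07, adjusted p = 0.115) in Cd69-/- cells, where both stem-like libraries lay above both term-diff ones. That order has no background beside it, as its share of all genes was not counted. The mean of both genotypes was -0.23 ± 0.08 (SE, adjusted p = 0.0848), and it passed the threshold after median-of-ratios scaling (-0.25, adjusted p = 0.0372) and after quantile normalization (-0.26, adjusted p = 0.0334). Adora2a rested on 184 to 285 implied fragments. On the tested scale the subset difference of Adora2a was 1.27-fold in Cd69-/- cells, where that of Nt5e was 4-fold.

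Adora2a was also the one adenosine receptor of 4 to pass the filter. Adora3 reached 0.923 FPKM, Adora2b 0.353 and Adora1 0.17, against 10.2 to 14.4 for Adora2a. The other 3 were not tested.

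P2rx7 was scarcely detected. Its levels were 0.353 and 0.446 FPKM in wild-type stem-like, 0.0983 and 0.413 in Cd69-/- stem-like, 0.5 and 0.0767 in wild-type term-diff and 0.361 and 0.609 in Cd69-/- term-diff cells. The groups overlapped throughout, and the deposited lower confidence limit was 0 in all 8 libraries, with upper limits of 0.399 to 1.34. The limits implied 0.227 to 2.78 fragments per library, and 0.227 cannot be a count, so the number of fragments behind each value is not known. With limits this wide, no difference between groups can be read at this depth. Among the other ATP receptors, P2rx4, the channel P2X4, was the one of 7 P2X genes to pass. Its level was 0.969 and 1.42 FPKM in wild-type stem-like, 0.396 and 1.56 in Cd69-/- stem-like and 0.129 to 0.371 in term-diff cells. P2rx4 reached 1 FPKM in stem-like libraries alone, so it passed the filter through the subset where it was higher. Without a filter its mean difference over genotypes was -0.72 (adjusted p = 0.0953). It was lower in term-diff cells in the mean of genotypes (-0.72, adjusted p = 0.0306), a call lost in 8 of 17 alternatives, among them without any 1 of the 4 term-diff libraries (adjusted p = 0.0659 to 0.0824). Of 8 P2Y genes P2ry10, a lysophospholipid receptor by its known ligands, passed at 28.2 to 46.6 FPKM and was not called.

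Counted over all comparisons, 3 of the 4 tested members were called between the subsets of wild-type cells, where 13.1% of the 9782 tested genes were called. In Cd69-/- cells 3 of 4 were called against 9.45% of all genes, and in the mean of genotypes 3 of 4 against 20.5%. In each case Entpd1 and Cd38 were higher (as were 7.24%, 3.88% and 10.5% of all genes) and Nt5e lower (as were 5.83%, 5.56% and 9.93%) in term-diff cells. The mean differences over genotypes were 3.37 ± 0.12 for Entpd1 and -2.26 ± 0.08 for Nt5e (each adjusted p = 2.37e-06), and 0.78 ± 0.09 for Cd38 (adjusted p = 0.00061). The median of all genes was 0.06 in wild type and -0.03 in Cd69-/- cells. The members were chosen with earlier results of these data known, so 3 of 4 beside these shares is no test of the group.

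None of the 4 tested members was called between wild-type and Cd69-/- cells. In all, 0 of 4 were called in stem-like cells, where 0.153% of all genes were, 0 of 4 in term-diff cells (0.194%), 0 of 4 in the mean of subsets (0.542%) and 0 of 4 in the interaction of genotype and subset (0.0307%). At an unadjusted p below 0.05 stood Entpd1 and Adora2a in stem-like cells, Nt5e in term-diff cells, Entpd1 in the mean of subsets and Nt5e in the interaction.

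Entpd1 was higher in both Cd69-/- stem-like libraries than in both wild-type ones (log2(FPKM + 1) difference 0.49, 95% interval 0.09 to 0.89, adjusted p = 0.58). In term-diff cells the genotypes overlapped (0.17, -0.23 to 0.57, adjusted p = 0.668). The subset differences did not differ by test between genotypes (-0.32 ± 0.25, SE, adjusted p = 0.65). For Nt5e the 4 groups did not overlap at all, in the order wild-type term-diff, Cd69-/- term-diff, Cd69-/- stem-like, wild-type stem-like. The step between the term-diff groups was 0.39 (0.12 to 0.67, adjusted p = 0.235), and that between the stem-like groups -0.14 (-0.41 to 0.14, adjusted p = 0.841). The subset gap of Nt5e was smaller in Cd69-/- cells by 0.53 in the interaction term (0.14 to 0.92, unadjusted p = 0.0137, adjusted p = 0.542). How many of all tested genes separate by genotype in this way was not counted. The orders of libraries of Entpd1 and Nt5e thus have no background beside them.

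For Cd38 the genotypes overlapped in term-diff cells (0.05, -0.24 to 0.34, adjusted p = 0.875), and the difference in stem-like cells was -0.18 (-0.47 to 0.11, adjusted p = 0.819). Adora2a was higher in both Cd69-/- stem-like libraries than in both wild-type ones (0.29, 0.02 to 0.56, adjusted p = 0.637), with 0.08 in term-diff cells (-0.19 to 0.34, adjusted p = 0.783). The share of all genes separated by genotype in this way was not counted. The interactions were 0.23 ± 0.18 (SE, adjusted p = 0.659) for Cd38 and -0.22 ± 0.17 (adjusted p = 0.65) for Adora2a. These intervals leave room for genotype differences in term-diff cells of up to 0.57 for Entpd1 and 0.67 for Nt5e on this scale. The directions in term-diff cells turned for all 4 genes after rescaling to an equal sum of all rows, which moved the median of all genes there by -0.883.

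**Figure D2:**
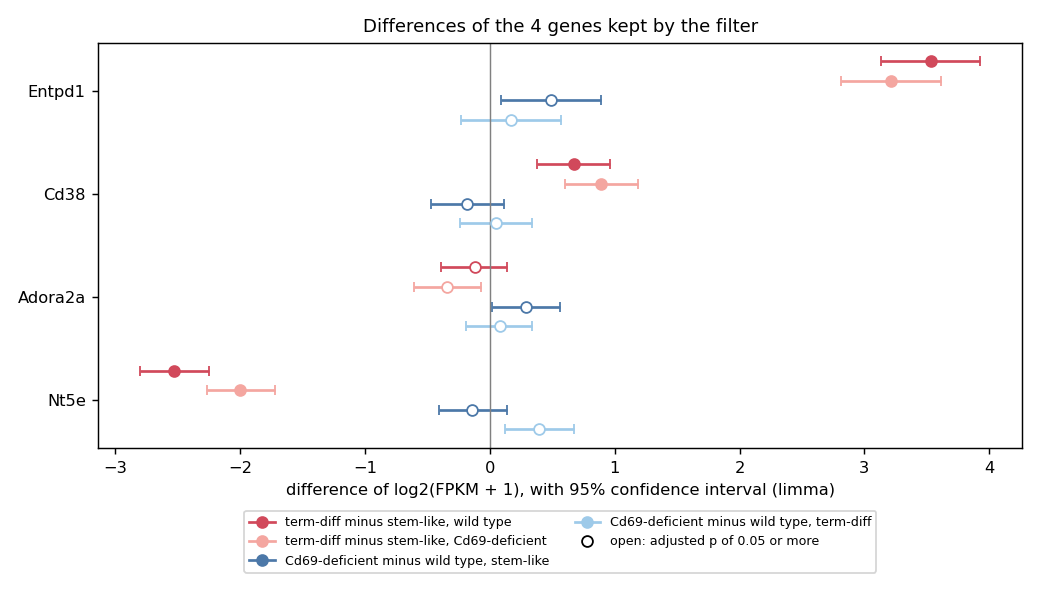
Differences in log2(FPKM + 1) of the 4 tested genes, as points with 95% intervals. The comparisons are the subsets in each genotype and the genotypes in each subset. Filled points passed an adjusted p of 0.05. Entpd1, Nt5e and Cd38 passed between the subsets of both genotypes (3.53, -2.53 and 0.67 in wild type), and no point passed between genotypes.

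The wider pathway was read from 10 lists of ectoenzymes, receptors, transporters, channels and cAMP genes, 110 genes with a single row, of which 61 passed the filter. With the 4 tested members left out, 57 were tested. Of these, 7 rose and 4 fell in term-diff cells of wild type (19.3% called, all genes 13.1%), and 2 rose and 5 fell in Cd69-/- cells (12.3%, all genes 9.45%). The median difference was 0.13 in wild type and -0.02 in Cd69-/- cells, near the 0.06 and -0.03 of all genes. In the mean of genotypes 9 rose and 9 fell (31.6%, all genes 20.5%). Called in both genotypes in the same direction were 5 genes, Ada, Adk, Slc29a1, Slc29a3 and Crem. How many of all tested genes were called in both genotypes was not counted, so this number has no background beside it. The wild-type count over all 61 was 14 and fell to 8 without wild-type stem-like replicate 2, to 9 without either wild-type term-diff library and to 6 without both wild-type replicate 2 libraries. In Cd69-/- cells it was 10, and 6 without Cd69-/- term-diff replicate 2. After rescaling to an equal sum of all rows it was 2 in wild type, Entpd1 and Nt5e, and 1 in Cd69-/- cells, Entpd1.

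**Figure D3:**
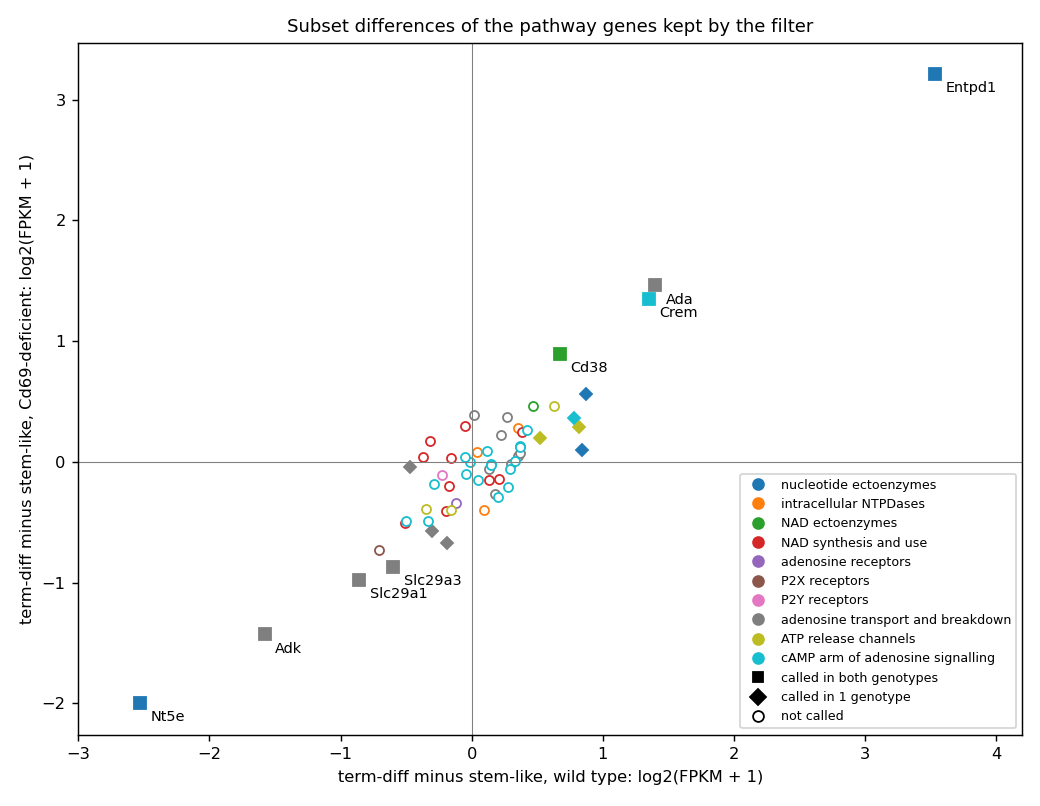
Difference in log2(FPKM + 1) between term-diff and stem-like cells of the 61 tested pathway genes, in wild type on the x axis and in Cd69-/- cells on the y axis. Entpd1 (3.53 and 3.21) and Nt5e (-2.53 and -2.00) lie farthest out, Ada and Crem lie above 1 and Adk below -1 on both axes, and most genes lie near 0.

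Of the enzymes that clear adenosine, Ada rose and Adk fell in term-diff cells of both genotypes. Ada, the deaminase that turns adenosine into inosine, was at 0.488 and 0.656 FPKM in wild-type stem-like cells and at 3.66 and 2.7 in wild-type term-diff cells. In Cd69-/- cells it was at 0.899 and 1.08 in stem-like and 4.64 and 4.3 in term-diff cells. Of the stem-like libraries, replicate 2 of Cd69-/- alone reached 1 FPKM for Ada, so it passed the filter through term-diff cells. It rose by 1.40 ± 0.16 (SE, adjusted p = 0.00117) and 1.46 ± 0.16 (adjusted p = 0.00125) on the log2(FPKM + 1) scale. Adk, the kinase that turns adenosine back into AMP inside the cell, had the opposite order. Its levels were 10.1 and 8.64 FPKM in wild-type stem-like, 11.2 and 7.93 in Cd69-/- stem-like, 2.7 and 2.23 in wild-type term-diff and 2.94 and 2.83 in Cd69-/- term-diff cells. It fell by 1.58 ± 0.17 in wild type (adjusted p = 0.000962) and by 1.43 ± 0.17 in Cd69-/- cells (adjusted p = 0.00193). The ratio of Ada to Adk was 0.0482 to 0.136 in the 4 stem-like libraries and 1.21 to 1.58 in the 4 term-diff libraries. The calls of both genes held in each alternative except the rescaling to an equal sum of all rows (adjusted p = 0.108 to 0.997).

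Of 3 tested nucleoside transporters 2 fell, and Slc28a2 was not called (0.02, adjusted p = 0.957 in wild type and 0.39, adjusted p = 0.179 in Cd69-/-). Slc29a1, the nucleoside transporter ENT1, was at 9.18 to 12.1 FPKM in the stem-like and 4.32 to 5.83 in the term-diff libraries. It fell by 0.86 in wild type (adjusted p = 0.0118) and by 0.98 in Cd69-/- cells (adjusted p = 0.00867). Among wild-type libraries, leaving out replicate 2 of stem-like ended the first call (adjusted p = 0.0549), as did leaving out replicate 1 of term-diff (0.0693) or both replicate 2 libraries (0.0952). The second ended when replicate 2 of Cd69-/- stem-like (0.0573) or of Cd69-/- term-diff (0.0567) was left out. Slc29a3, the lysosomal relative ENT3, was at 2.01 to 3.22 FPKM in stem-like and 1.14 to 1.29 in term-diff cells. Its fall of 0.87 in Cd69-/- cells (adjusted p = 0.0113) was lost if replicate 1 of Cd69-/- stem-like (adjusted p = 0.0932) or either Cd69-/- term-diff library (0.0525 and 0.0738) was left out. Its wild-type value (-0.60, adjusted p = 0.0384) lost its call without any 1 library other than wild-type stem-like replicate 1 (adjusted p = 0.0572 to 0.172). Of the 15 tested genes of adenosine transport and breakdown, 1 rose and 4 fell in wild type, and 1 rose and 5 fell in Cd69-/- cells. Of all genes 7.24% rose and 5.83% fell in wild type, and 3.88% and 5.56% in Cd69-/- cells. The further falls were Nt5c in wild type (-0.47, adjusted p = 0.0259) and Nt5c2 (-0.67, adjusted p = 0.0209) and Dpp4 (-0.57, adjusted p = 0.0463) in Cd69-/- cells. The Nt5c call was lost without any 1 wild-type library (adjusted p = 0.0731 to 0.129). That of Nt5c2 was lost if Cd69-/- stem-like replicate 1 (0.146), its replicate 2 (0.0713) or Cd69-/- term-diff replicate 2 (0.118) was left out, and that of Dpp4 without any 1 stem-like or Cd69-/- term-diff library (adjusted p = 0.0566 to 0.226). Nt5c and Nt5c2 encode nucleotidases inside the cell, and Dpp4 encodes the surface peptidase CD26.

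Besides CD39 and CD73, 2 other surface nucleotide enzymes were tested. Enpp1, which splits ATP and NAD products into AMP, was at 1.8 and 2.74 FPKM in wild-type stem-like and 4.91 and 4.9 in wild-type term-diff cells. It rose by 0.87 in wild type (adjusted p = 0.00925), and the Cd69-/- value was 0.56 (adjusted p = 0.059, 2.08 and 2.15 against 3.49 and 3.71 FPKM). Acpp, a phosphatase that can make adenosine from AMP, was at 1.17 and 1.19 FPKM in wild-type stem-like cells and at 2.63 and 3.16 in wild-type term-diff cells. In Cd69-/- cells it was at 1.16 and 1.26 and at 1.47 and 1.27. The difference was 0.84 in wild type (adjusted p = 0.00694, 0.116 without both wild-type replicate 2 libraries) and 0.10 in Cd69-/- cells (adjusted p = 0.698). The difference between these differences was -0.74 ± 0.20 (SE, adjusted p = 0.539). Of the 4 tested nucleotide ectoenzymes, members included, 3 rose and 1 fell in wild type (all genes 7.24% and 5.83%), and 1 rose and 1 fell in Cd69-/- cells (3.88% and 5.56%). The 5 untested ones reached at most 0.759 FPKM (Alpl). No intracellular NTPDase was called (0 of 3).

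Of 5 tested ATP release channels, Panx1 (0.82, adjusted p = 0.00814) and Lrrc8c (0.52, adjusted p = 0.0325) rose in wild type and 0 in Cd69-/- cells, where 7.24% and 3.88% of all genes rose. The 0 of 5 is near that background. Panx1, the pannexin channel, was at 5.42 and 5.56 FPKM in wild-type stem-like and 9.91 and 11.1 in wild-type term-diff cells, and at 5.67 and 7.02 and at 7.22 and 8.78 in Cd69-/- cells (0.29, adjusted p = 0.247). Its interaction was -0.53 (adjusted p = 0.542), and its wild-type call was lost when term-diff replicate 1 (adjusted p = 0.0535) or both wild-type replicate 2 libraries (0.0885) were left out. That of Lrrc8c, a subunit of a volume-regulated channel, was lost without any 1 wild-type or Cd69-/- stem-like library (adjusted p = 0.0547 to 0.146).

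Of 19 tested genes of the cAMP arm, which lies below the Adora2a receptor, 2 rose in wild type and 1 in Cd69-/- cells. These shares, 10.5% and 5.26%, lie under the 13.1% and 9.45% of all genes called. Crem, a cAMP-responsive transcription factor, was at 15.6 and 15.1 FPKM in wild-type stem-like and 43.8 and 37.6 in wild-type term-diff cells. Its Cd69-/- levels were 12.8 and 9.99 in stem-like and 34 and 27.1 in term-diff cells. It rose by 1.35 ± 0.16 in both (adjusted p = 0.00169 and 0.00197). The other was the phosphodiesterase Pde4a in wild type (0.78, adjusted p = 0.0366), lost without any 1 library other than wild-type term-diff replicate 1 (0.52 to 0.91). Pde4a reached 1 FPKM in term-diff libraries alone, so it passed the filter through the subset where it was higher. The median over the 19 genes was 0.15 in wild type and -0.02 in Cd69-/- cells, so Crem stood apart from most of its list.

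**Figure D4:**
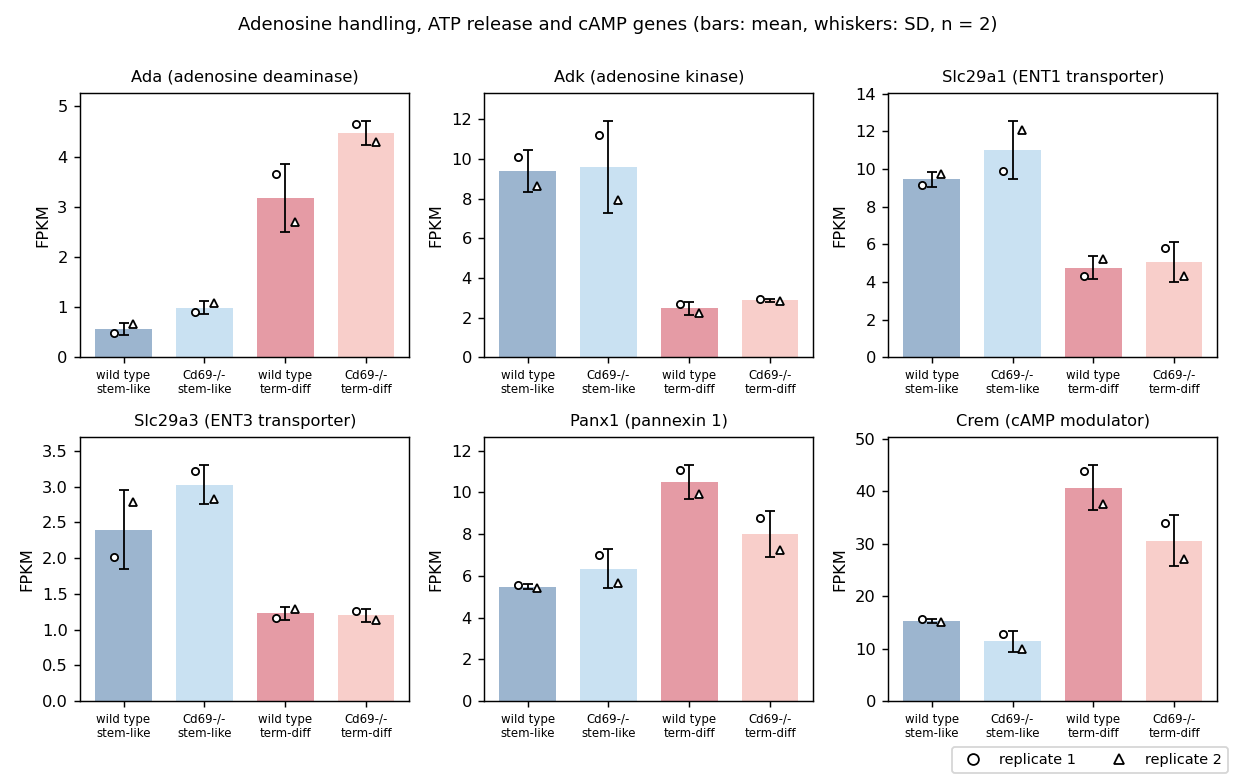
FPKM of 6 pathway genes by group on linear axes; bars are group means, whiskers the SD of 2 libraries and symbols the single libraries. Ada and Crem are higher and Adk, Slc29a1 and Slc29a3 lower in every term-diff than in every stem-like library, while Panx1 in Cd69-/- cells has 7.22 and 8.78 FPKM in term-diff against 5.67 and 7.02 in stem-like libraries.

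Between genotypes 0 of the 61 pathway genes were called by limma in stem-like cells, term-diff cells or the mean of subsets, nor in the interaction. Of all genes 0.153%, 0.194%, 0.542% and 0.0307% were called in these, so the count of 0 is near the background. At an unadjusted p below 0.05 there were 5 in stem-like cells, 11 in term-diff cells, 7 in the mean of subsets and 7 in the interaction. The share of all genes at that unadjusted p was not counted, so these numbers are not read as a trait of the pathway. The smallest adjusted p was 0.117, for Acpp in term-diff cells (-0.71).

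For each tested member the 3 genes with the most similar profile were found over the 8 libraries, by the root mean square difference of log2(FPKM + 1) values centred on each gene's mean, among 4692 genes with a mean of at least 5 FPKM. Among those of Entpd1 were the TIM-3 gene Havcr2 (0.21) and Filip1 (0.26). Havcr2 had group means of 0.917 and 2.16 FPKM in wild-type and Cd69-/- stem-like cells, and of 24.6 and 35.3 in term-diff cells. Nearest to Nt5e were 1700019D03Rik (0.13), Tiam1 (0.15), an activator of the GTPase Rac, and the surface receptor Crtam (0.20). Crtam had group means of 24.6 and 23.8 FPKM in wild-type and Cd69-/- stem-like cells and 4.21 and 6.53 in term-diff cells. Nearest to Cd38 were Pmf1 (0.05), Hsp90b1 (0.08), a chaperone of the endoplasmic reticulum, and AI413582 (0.10). Among those of Adora2a were Tnrc6c (0.06) and Cflar (0.06), whose levels, like its own, were highest in Cd69-/- stem-like cells. With a pseudocount of 0.1 the 3 nearest kept 3 of 3 genes for Entpd1 and Nt5e and 2 of 3 for Cd38 and Adora2a.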

How the data were processed

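RNA from sorted CD8+ T cells was sequenced in 8 libraries with the SMARTer Pico Input kit (stranded total RNA, single-end reads), per the labels' protocols. The authors deposited 1 Cufflinks gene table per library with FPKM and confidence limits. Cufflinks 2.2.1, TopHat 1.3.2, Bowtie2 2.3.4, bcl2fastq 2.20 and the mm10 build come from the submitters' processing notes. Whether strand was used in counting is not given in the sources used here.

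Total fragments were inferred from the confidence limits as the square of 2 × FPKM divided by the upper limit minus FPKM. What these limits cover beside counting error was not established here, so implied fragments are not read counts. The 9782 genes that reached 1 FPKM in 2 or more of the libraries were tested with limma 3.58.1 (R 4.3.3) on log2(FPKM + 1), as 4 group means with a trended eBayes prior (4 residual degrees of freedom), 2-sided, with Benjamini-Hochberg adjustment over all tested genes and a threshold of 0.05. Intervals are 95% of these fits. The script was tested on simulated data. Of the symbols listed for the pathway and markers, those with several loci or no row were left out.

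The members and lists were chosen with earlier results of these data known. Named were the members, Cd69, pathway genes past the threshold (at least the 2 of smallest p in each list with a call) and the 3 nearest profiles per member, of which 2 genes are not reported here. Alternatives were other pseudocounts (0.1, 5), no filter or a filter of 5 FPKM, 4 scalings, robust or untrended eBayes, fits of the groups compared alone, a replicate block, and leaving out each library. Leaving out both wild-type replicate 2 libraries was added after seeing the data.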

Additional observations from a re-analysis of the deposited data

How the results depend on the processing

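Of 569 alternative values of the 4 tested members over the 7 comparisons, 548 kept their direction and side of the threshold, 7 lost a call, 2 gained one and 12 changed direction, 10 of the last by rescaling to an equal sum of all rows. That rescaling weights small RNA and moved the median of all genes by 0.147 (wild-type subsets), -0.29 (Cd69-/- subsets), -0.455, -0.883 and -0.667 (genotype in stem-like, term-diff and mean) and -0.436 (interaction). Under it the genotype difference in term-diff cells was -0.86 for Entpd1, -0.47 for Nt5e, -0.84 for Cd38 and -0.90 for Adora2a, and in the mean of subsets -0.33 for Entpd1, -0.56 for Nt5e and -0.56 for Adora2a. Adora2a was at -0.21 by genotype in stem-like cells and at 0.02 between the wild-type subsets, and the Cd38 interaction was -0.27. Calls were lost for Nt5e in Cd69-/- cells (-2.25) and for Cd38 in wild type (0.84), Cd69-/- cells (0.57) and the mean (0.71), and the pathway counts of 14, 10 and 21 became 2, 1 and 4. Rescaling without small RNA turned the genotype difference in term-diff cells to -0.05 for Cd38 and -0.03 for Adora2a, and made the split of all genes called in Cd69-/- subsets 264 higher and 633 lower, against 380 and 544. The subset mean of Adora2a passed after median-of-ratios scaling (-0.25) and quantile normalization (-0.26). Leaving out 1 library gave Cd38 in wild type 0.62 to 0.71, and pathway counts of 8 to 13 (wild type), 6 to 10 (Cd69-/-) and 12 to 18 (mean of genotypes; 12 without Cd69-/- stem-like replicate 1, 13 without wild-type term-diff replicate 2). Without both wild-type replicate 2 libraries Cd38 in wild type was 0.58 and the counts were 6 and, in the mean, 12. A filter of 5 FPKM gave 9, 6 and 13, and no filter gave 13 in the mean. For these changes the cause was not tested, beyond the fewer libraries or genes by construction. Where a fit left a group with 1 library, that library was assumed to vary like the others.

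The deviations of same-numbered libraries from their group means had r = -0.297 to 0.152 over 6 pairs of groups, the highest for the wild-type subsets, whose replicate 2 libraries also had the lowest small RNA shares. Not every pair exceeded 0.1 and the labels do not say what a number stands for, so the numbers were not taken to pair the libraries. With the replicate block Entpd1 stayed at 3.53 in wild type (adjusted p = 7.72e-05) and Cd38 at 0.67 (adjusted p = 0.0229), no member call changed, and the pathway counts were 12, 10 and 19.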
